A study of Mus musculus with 6 samples.

Results

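The transcripts of 10 genes of YAP/TEAD signaling were followed in CFPAC-1 cells after KRT7 knockdown. The genes were chosen as a list of Ensembl identifiers that covers components of the pathway and genes it is known to control, namely YAP1 (ENSG00000137693), WWTR1 (ENSG00000018408), TEAD1 (ENSG00000187079), LATS2 (ENSG00000150457), AMOTL2 (ENSG00000114019), AJUBA (ENSG00000129474), CCN1 (ENSG00000142871), CCN2 (ENSG00000118523), ANKRD1 (ENSG00000148677) and AXL (ENSG00000167601). All 10 were found among the 30543 genes of the count table, and all 10 were among the 15736 genes that passed the filter on low counts. CFPAC-1 is a single established human pancreatic adenocarcinoma (PAAD) line. Both groups came from this line and both received a siRNA, a negative control siRNA in si-Control (3 libraries) and a siRNA against KRT7 in si-KRT7 (3 libraries). KRT7 encodes a keratin of simple and ductal epithelia. The KRT7 duplex used for these libraries and the time between transfection and harvest are not given in the sources used here. The legend of the panels made from these libraries and from other assays speaks of independent experiments, but the sources do not say that this covers the libraries of a group, so the p-values measure only the spread between these libraries, which may be technical.

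YAP1 and its paralog TAZ, which is encoded by WWTR1, are transcriptional coactivators that have no DNA-binding domain of their own. They enter the nucleus and bind TEAD proteins on DNA, unless the LATS kinases of the Hippo pathway phosphorylate them and hold them in the cytoplasm. The pathway responds to cell density, cell shape and tension in the cytoskeleton. YAP and TEAD raise the transcription of secreted and surface proteins such as CCN1, CCN2 and AXL, and also of their own inhibitors, which forms a negative feedback loop. Much of the control acts on the location and stability of the YAP1 and TAZ proteins, which read counts do not measure.

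The libraries held between 28208896 and 36315802 counts, and each of the 10 genes had between 553 and 23980 counts per library. Counting error alone was therefore at most 4.25% of a value, which was reached by CCN2 in si-KRT7 replicate 2. Replicate 2 of si-KRT7 stood apart. Its Pearson correlations with replicates 1 and 3 over log2 CPM, across genes, which are not independent replicates, were 0.982 and 0.982, whereas replicates 1 and 3 had 0.992. It correlated more closely with each si-Control library (0.986 for all 3) than with its own group. The test of each gene is therefore given with and without this library. It was singled out from these same data, so the p-values without it are descriptive and are not independent support. With any other single library left out, 0 of the 10 genes reached an adjusted p under 0.05 in edgeR. Levels are normalised read counts in CPM, reads scaled to a common library total, with edgeR's TMM factors. They are not divided by gene length, so levels were compared between libraries and not between genes. The mRNA of a whole culture was measured, in which a change in some of the cells and a smaller change in all of them cannot be told apart. Identifiers outside the 10 genes were not paired with symbols here, so the KRT7 transcript itself, the epithelial and other cell type markers and further Hippo pathway genes were not analysed here.

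In si-KRT7 cells ANKRD1 was 1.49-fold higher and AXL fell to 0.729 of its si-Control level. These were the genes of the list that passed the limit of an adjusted p under 0.05 in edgeR's quasi-likelihood test, which 2.07% of the 15736 genes tested passed (0.712% higher and 1.35% lower). No gene of the list had a log2 fold change over 1 in either direction. An unadjusted p under 0.05 was reached by 6 of the 10 genes, against 18.6% of all genes tested. The 3 si-KRT7 libraries did not overlap the 3 si-Control libraries in 7 of the 10 genes, or in 6, without AJUBA, when scaled by library size only, against 24.4% of all genes tested with TMM. LATS2, AMOTL2, AJUBA and ANKRD1 lay above si-Control (4 of 10, against 11.3% of all genes), and CCN1, CCN2 and AXL lay below it (3 of 10, against 13.0%). YAP1, WWTR1 and TEAD1, the coactivators and their DNA-binding partner, overlapped. Across the 10 genes the median log2 fold change was 0.13 and the median size of the change was 0.27 on the log2 scale, compared with 0.011 and 0.18 over all genes tested. The values over all genes, here and below, were not matched to the list for expression level. The list was also chosen with earlier results of these data known.

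**Figure D1:**
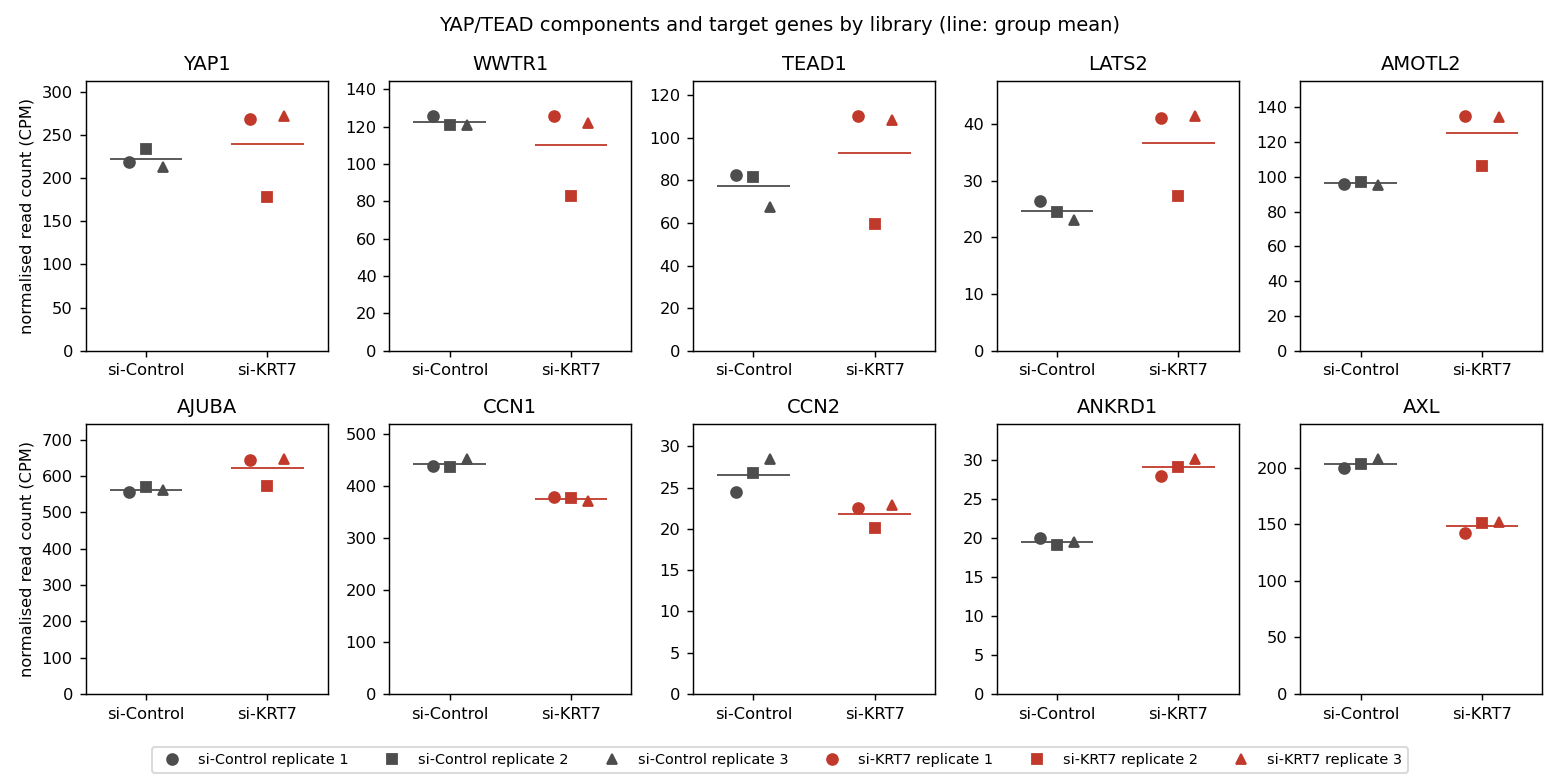
Normalised read counts (CPM, linear axes from 0, 1 panel per gene) in the 3 si-Control (grey) and 3 si-KRT7 (red) libraries, with marker shape giving the replicate number and a line at the group mean. ANKRD1 and AXL separate cleanly between the groups, whereas replicate 2 of si-KRT7 (square) lies below all si-Control libraries for YAP1, WWTR1 and TEAD1.

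For the transcripts of the coactivators and of TEAD1, si-KRT7 replicate 2 lay well below replicates 1 and 3. YAP1 stood at 218, 234 and 213 CPM in si-Control replicates 1, 2 and 3 and at 268, 178 and 272 CPM in si-KRT7 replicates 1, 2 and 3. Replicates 1 and 3 of si-KRT7 thus lay above every si-Control library and replicate 2 below every one of them. The YAP1 mean was 222 ± 11.0 CPM in si-Control and 239 ± 52.8 CPM in si-KRT7 cells (SD, n = 3 each), and the log2 fold change was 0.11 (95% confidence interval -0.24 to 0.46, adjusted p = 0.751 in edgeR). The fold consequently could lie anywhere from 0.848 to 1.37. With si-KRT7 replicate 2 left out, YAP1 had a log2 fold change of 0.28 (interval 0.20 to 0.36, adjusted p = 1.81e-06 in edgeR), in a fit in which 42.9% of all genes tested passed the limit.

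WWTR1 lay at 126, 121 and 121 CPM in si-Control cells and at 126, 82.8 and 122 CPM in si-KRT7 cells. Replicate 2 held 67.7% of the si-Control mean, while replicates 1 and 3 lay at the si-Control level. The log2 fold change was -0.15 (interval -0.49 to 0.19, adjusted p = 0.639 in edgeR) with all 6 libraries and 0.016 (interval -0.065 to 0.098, adjusted p = 0.781) without si-KRT7 replicate 2. WWTR1 was the gene of the list for which no alternative passed the limit, and the sign of its log2 fold change turned when that library was left out.

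TEAD1, which encodes a DNA-binding partner of YAP1 and TAZ, was the most variable of the 10 genes in si-KRT7 cells. It lay at 82.6, 81.5 and 67.7 CPM in si-Control and at 110, 59.6 and 108 CPM in si-KRT7 replicates 1, 2 and 3. The pattern was that of YAP1, with replicates 1 and 3 above and replicate 2 below all si-Control libraries. The coefficient of variation was 31.0% in si-KRT7 and 10.7% in si-Control cells. The log2 fold change was 0.26 (interval -0.23 to 0.76, adjusted p = 0.557 in edgeR) with all libraries and 0.50 (interval 0.37 to 0.62, adjusted p = 3.54e-07) without si-KRT7 replicate 2.

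Inhibitors and scaffolds of the pathway that YAP and TEAD also induce were higher in every si-KRT7 library than in any si-Control library, except for AJUBA when libraries were scaled by total counts only, and none passed the adjusted limit in edgeR with all 6 libraries. LATS2, a kinase that phosphorylates YAP1 and TAZ, stood at 26.4, 24.4 and 23.2 CPM in si-Control and at 41.1, 27.4 and 41.4 CPM in si-KRT7 cells. In replicates 1 and 3 this was 167% and 168% of the si-Control mean, whereas replicate 2 reached 111% and came close to si-Control replicate 1. For LATS2 the log2 fold change was 0.57 (standard error 0.16, interval 0.21 to 0.94, adjusted p = 0.112 in edgeR). Without si-KRT7 replicate 2 it was 0.74 (adjusted p = 7.43e-09), the largest of the 10 genes in that fit. With any other single library left out, the adjusted p of LATS2 in edgeR lay between 0.306 and 0.387. In the DESeq2 Wald test on all libraries, which called 8.08% of the genes it tested, LATS2 (adjusted p = 0.0179) passed the limit, as did AMOTL2 (adjusted p = 0.0309).

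AMOTL2, an angiomotin family protein that binds YAP1 and keeps it out of the nucleus, had the tightest si-Control levels of the list, at 96.1, 97.2 and 95.6 CPM. Its si-KRT7 levels were 135, 106 and 135 CPM. All si-KRT7 libraries exceeded all si-Control libraries, and replicate 2 again lay nearest to them, at 110% of the si-Control mean against 140% in replicates 1 and 3. The AMOTL2 difference was 0.38 on the log2 scale (standard error 0.10, interval 0.14 to 0.62, adjusted p = 0.105 in edgeR), and 0.48 (adjusted p = 6.92e-10) without si-KRT7 replicate 2.

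AJUBA, a LIM-domain scaffold that binds LATS kinases and restrains them, showed a small difference. It lay at 555, 569 and 562 CPM in si-Control and at 646, 574 and 646 CPM in si-KRT7 cells. Replicate 2 exceeded the highest si-Control library by a narrow margin, and with scaling to library size only it lay at 560 CPM, below the highest si-Control level of 568 CPM. AJUBA had a log2 fold change of 0.15 (interval -0.021 to 0.31, adjusted p = 0.331 in edgeR) and 0.20 (adjusted p = 9.13e-06) without si-KRT7 replicate 2.

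**Figure D2:**
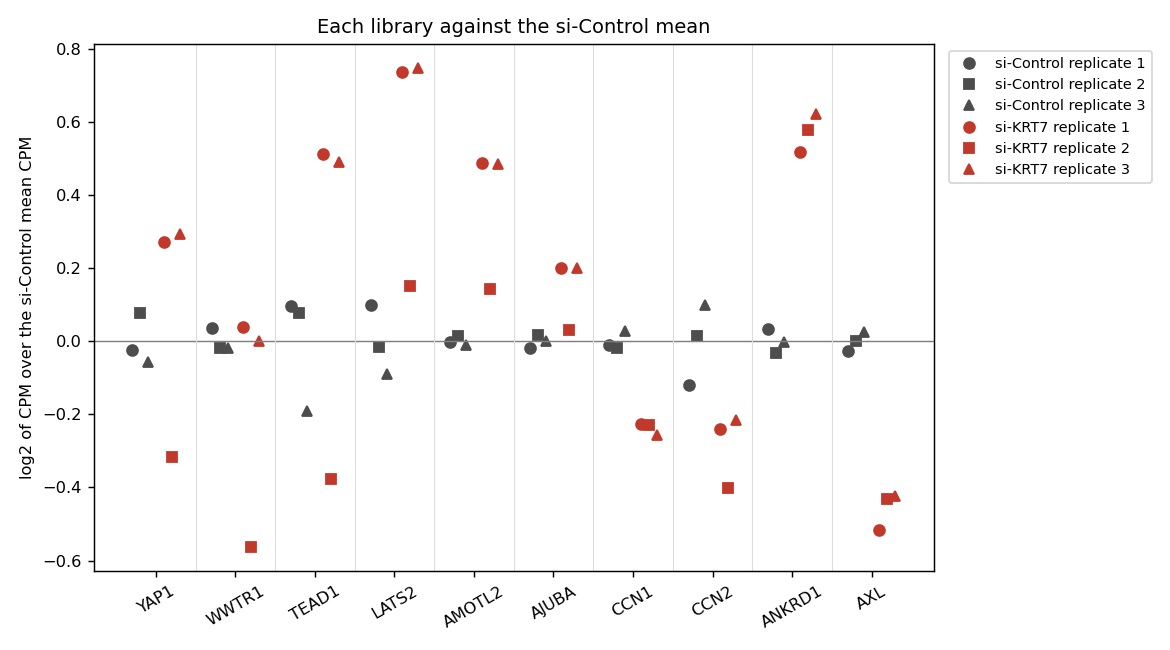
Log2 of the CPM of each library over the si-Control mean CPM (vertical axis) for the 10 genes (horizontal axis), with si-Control in grey, si-KRT7 in red and marker shape giving the replicate. Replicates 1 and 3 of si-KRT7 lie close together for every gene, and replicate 2 lies with them for CCN1, ANKRD1 and AXL but well below them for YAP1, WWTR1, TEAD1 and LATS2.

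The 4 target genes that are not regulators of the pathway showed opposite differences. ANKRD1, which encodes an ankyrin-repeat protein of the nucleus and of the muscle sarcomere and is widely used as a YAP reporter gene, was higher. It stood at 20.0, 19.1 and 19.5 CPM in si-Control and at 28.0, 29.2 and 30.1 CPM in si-KRT7 replicates 1, 2 and 3. The groups were far apart and replicate 2 lay between the other si-KRT7 libraries. The mean rose from 19.6 ± 0.440 to 29.1 ± 1.06 CPM (SD, n = 3 each), a log2 fold change of 0.57 (standard error 0.086, interval 0.37 to 0.77, adjusted p = 0.0186 in edgeR). Without si-KRT7 replicate 2 the value for ANKRD1 was 0.57 (adjusted p = 1.44e-06).

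AXL, a receptor tyrosine kinase, was lower. It lay at 200 CPM in si-Control replicate 1, at 204 CPM in replicate 2 and at 207 CPM in replicate 3. In si-KRT7 cells the levels were 142, 151 and 152 CPM. Each si-KRT7 library held between 69.9% and 74.5% of the si-Control mean, and replicate 2, at 74.1%, did not stand apart. The mean fell from 204 ± 3.75 to 148 ± 5.19 CPM (SD, n = 3 each), a log2 fold change of -0.46 (standard error 0.069, interval -0.62 to -0.30, adjusted p = 0.0186 in edgeR), and of -0.47 (adjusted p = 6.55e-10) with replicate 2 of si-KRT7 left out. For ANKRD1 and AXL alike an exact permutation of the group labels (two-sided) had p = 0.1, below which 3 libraries against 3 cannot go. LATS2, AMOTL2, AJUBA, CCN1 and CCN2 had the same value.

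Both calls were lost when any library other than si-KRT7 replicate 2 was left out, with the number of all genes past the limit then between 6 and 87. The size of the changes hardly moved when 1 library at a time was left out (6 fits), with log2 fold changes of 0.55 to 0.60 for ANKRD1 and -0.47 to -0.43 for AXL, and adjusted p-values of up to 0.153 and 0.166 in edgeR.

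The secreted matricellular proteins CCN1 and CCN2, also known as CYR61 and CTGF, are classical YAP/TEAD targets. CCN1 lay at 438, 436 and 451 CPM in si-Control and at 378, 377 and 370 CPM in si-KRT7 cells. The si-KRT7 libraries were the closest to each other for any of the 10 genes, with a coefficient of variation of 1.14%, and all lay below si-Control. The CCN1 difference was -0.24 on the log2 scale (standard error 0.063, interval -0.38 to -0.093), and its adjusted p of 0.100 in edgeR missed the limit. In the DESeq2 Wald test on all libraries CCN1 passed the limit (adjusted p = 0.0378). Without si-KRT7 replicate 2 the CCN1 difference kept the value of -0.24 (adjusted p = 1.17e-06 in edgeR).

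CCN2 lay at 24.4, 26.8 and 28.4 CPM in si-Control and at 22.5, 20.1 and 22.9 CPM in si-KRT7 cells. The groups did not overlap, but si-Control replicate 1 and si-KRT7 replicate 3 were closer to each other than to the extremes of their own groups. Its log2 fold change was -0.28 (standard error 0.10, interval -0.51 to -0.050, adjusted p = 0.193 in edgeR) and -0.23 (adjusted p = 0.0200) without si-KRT7 replicate 2.

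**Figure D3:**
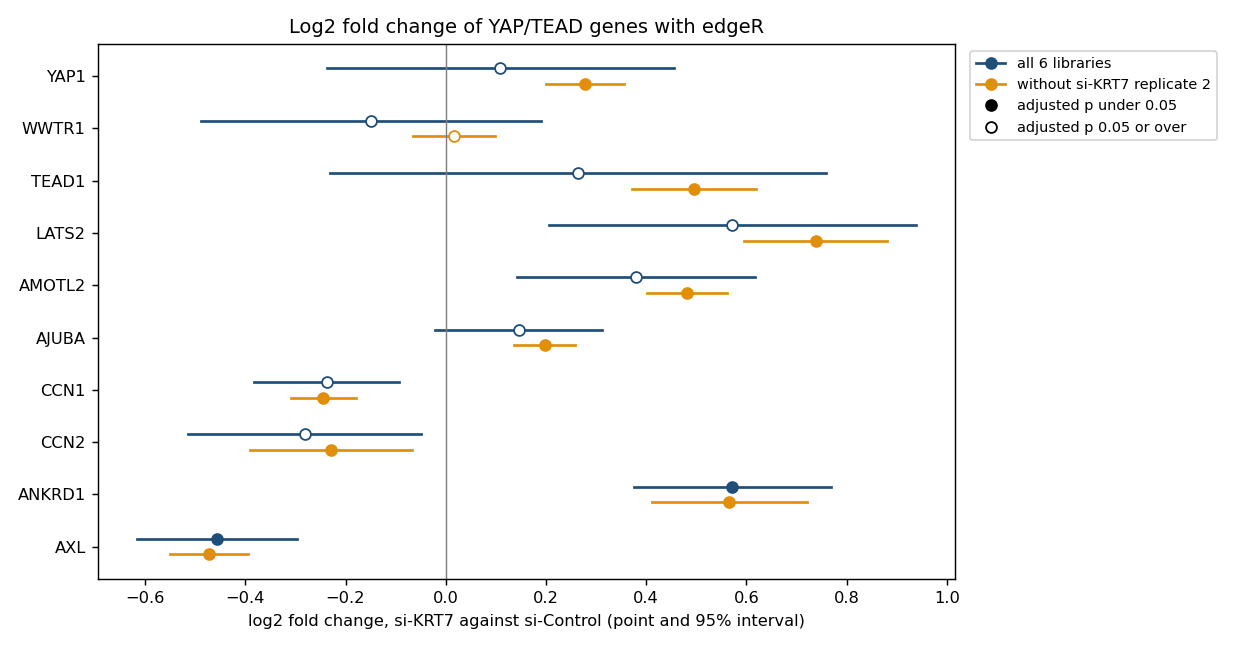
Log2 fold change of si-KRT7 against si-Control (horizontal axis, points with 95% confidence intervals from edgeR) for the 10 genes with all 6 libraries (blue) and without si-KRT7 replicate 2 (orange), filled where the adjusted p was under 0.05. With all libraries ANKRD1 (0.57) and AXL (-0.46) were filled, and without replicate 2 all genes but WWTR1 were.

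Without si-KRT7 replicate 2, 9 of the 10 genes passed the limit, 6 higher (YAP1, TEAD1, LATS2, AMOTL2, AJUBA and ANKRD1) and 3 lower (CCN1, CCN2 and AXL). The count is to be read against the share of all genes that passed in that fit, which was 20.9% higher and 22.0% lower. An unadjusted p under 0.05 was reached by 9 of the 10 genes, against 48.9% of all genes, and 9 of the 10 did not overlap between the groups, against 60.6%. The spread between libraries was much smaller there, with a common biological coefficient of variation of 0.0485 against 0.130 with all 6.

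The genes of the list differed in how far replicate 2 departed from the other si-KRT7 libraries. On the log2 CPM scale it lay 0.88 below the mean of replicates 1 and 3 for TEAD1, at percentile 3.42 of the same difference over all genes tested. For YAP1, LATS2 and WWTR1 the differences of -0.60, -0.59 and -0.58 fell at percentiles 10.3, 10.5 and 10.9. AMOTL2 (-0.34), CCN2 (-0.17) and AJUBA (-0.17) lay between percentiles 24.3 and 35.9. CCN1 (0.011), ANKRD1 (0.0079) and AXL (0.038) lay between percentiles 49.8 and 52.2, which is the middle of all genes. Replicates 1 and 3 of si-KRT7 differed by at most 0.11 on this scale in any of the 10 genes. These differences are descriptions of single libraries, without a test.

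Ratios of the counts of a pair of genes within a library do not depend on how libraries are scaled, and were therefore compared as well. Of the 45 pairs of the 10 genes, 27 had ratios that did not overlap between the groups (60.0%), against 23.9% of all pairs of genes tested. With si-KRT7 replicate 2 left out these were 41 of the 45, against 52.9%. The pairs share genes and are not independent, and the shares over all pairs were not matched for expression level. The 6 pairs described here were chosen after their values were seen.

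The ratio of YAP1 to LATS2 counts, a coactivator to the kinase that inhibits it, was 8.25, 9.58 and 9.20 in si-Control and 6.51, 6.51 and 6.56 in si-KRT7 cells. Replicate 2 of si-KRT7, in which both transcripts were lower than in replicates 1 and 3, had a ratio close to theirs. The ratio of YAP1 to WWTR1 was 1.74, 1.94 and 1.77 in si-Control and 2.13, 2.15 and 2.22 in si-KRT7 cells, again with replicate 2 among the others. YAP1 to TEAD1, by contrast, overlapped between the groups, at 2.64, 2.87 and 3.15 in si-Control and 2.43, 2.99 and 2.50 in si-KRT7 cells.

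Among the targets, CCN1 to CCN2 did not separate the groups, with ratios of 15.9 to 17.9 in si-Control and 16.2 to 18.7 in si-KRT7 cells. CCN2 to ANKRD1 separated them widely. It was 1.22, 1.40 and 1.45 in si-Control and 0.803, 0.689 and 0.760 in si-KRT7 cells. The ratio of AJUBA to AXL lay between 2.71 and 2.80 in si-Control and between 3.81 and 4.54 in si-KRT7 cells.

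**Figure D4:**
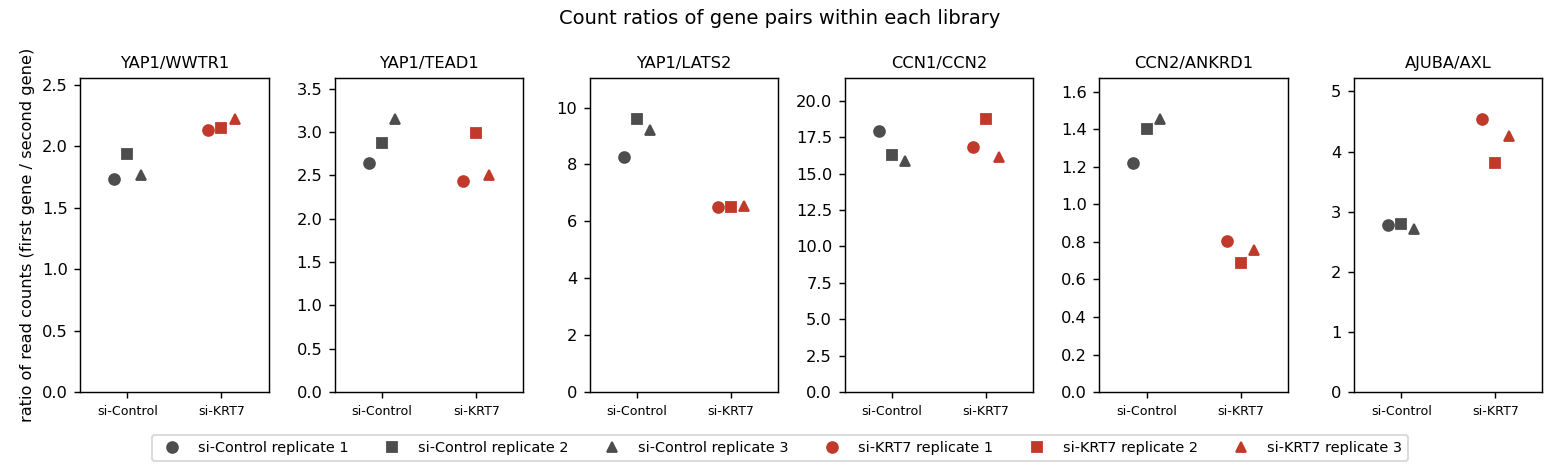
Ratio of the read counts of the first to the second gene of 6 pairs within each library (vertical axes from 0, no normalization), for si-Control (grey) and si-KRT7 (red) with marker shape giving the replicate. YAP1/LATS2 ratios lie between 6.51 and 6.56 in all si-KRT7 libraries, replicate 2 included, while YAP1/TEAD1 and CCN1/CCN2 overlap between the groups.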

How the data were processed

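Polyadenylated RNA of CFPAC-1 cells was sequenced on the DNBSEQ platform, with 3 libraries per group. The table that the authors deposited holds raw read counts of each gene. The submitters' processing notes name STAR 2.7.11b and the mouse build GRCm39, and the labels name the mouse, whereas all 30543 identifiers are human Ensembl identifiers. The counting tool and annotation are not given in the sources used here. None of the identifiers matched the mouse gene tables used here (0), so no gene positions, lengths or sequences are given.

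Testing was done with edgeR 4.0.16 in R 4.3.3, using filterByExpr, TMM factors and the quasi-likelihood functions glmQLFit and glmQLFTest. Benjamini-Hochberg adjustment covered all 15736 genes tested (99.9% of counts), with a limit of 0.05. Standard errors and 95% intervals come from the F statistic and are approximate. Log2 CPM used a prior count of 2, and ratios over all gene pairs used counts plus 0.5. Alternatives included DESeq2 1.42.0 and limma 3.58.1. The fits with edgeR, DESeq2, voom and the robust option were tested on simulated data. There all libraries varied alike, and the changes put in were larger than those of the 10 genes. No simulated library stood apart as si-KRT7 replicate 2 did, so the simulation cannot tell how the fits behave with such a library. The genes and lists were chosen with earlier results of these data known. The rule for named genes was the 10 listed genes. Lists of other Hippo genes, YAP/TEAD targets and cell type markers were not analysed here, since their identifiers were not paired with symbols.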

Additional observations from a re-analysis of the deposited data

How the results depend on the processing

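With all 6 libraries, 2 of the 10 genes (1 higher, 1 lower) and 325 of all genes (2.07%) passed the adjusted limit. These counts were the same or within 1.5 times when scaled by library size alone or by size factors of DESeq2, in limma-voom, in the robust fit and with a minimum of 10 counts in every library. The DESeq2 Wald test gave 5 of the 10 (3 higher, 2 lower) and 1148 genes (8.08% of those it tested). Quality weights in limma-voom gave 9 (6 higher, 3 lower) and 6858 genes, 43.6% of all genes (21.8% higher, 21.8% lower). With no filter, 4 (3 higher) and 1347 of 30543 genes (4.41%) passed. Leaving out 1 library at a time gave from 0 to 9 of the 10 (0 to 6 higher, 0 to 3 lower). Over all genes this gave from 6 to 6944, or 0.0372% to 42.9%. All the highest values came without si-KRT7 replicate 2, and without any other library 0 of the 10 passed, while 5 or 6 had an unadjusted p under 0.05 in edgeR, against 11.4% to 12.8% of all genes. With the replicate block 0 of the 10 and 76 genes (0.483%) passed. In that edgeR fit 5 of the 10 had an unadjusted p under 0.05 (14.7% of all genes). Its adjusted p was 0.0916 for ANKRD1 and 0.0986 for AXL. The sources used here do not say whether same-numbered libraries were paired. The correlations between them, taken on deviations from the mean of each group, were 0.0520, -0.0798 and -0.0728. With 3 libraries per group, these values cannot settle whether they were. The log2 fold change of WWTR1 ran from -0.26 without si-KRT7 replicate 1 to 0.016 without si-KRT7 replicate 2, where its direction turned. That of the other 9 genes did not turn in any of the 15 alternatives. In comparisons added after seeing the data, the number of genes without overlap was 6 with library size alone (23.9% of all genes) and 9 without si-KRT7 replicate 2 (60.6% of all genes). The number of pair ratios without overlap was 41 without that library (52.9% of all pairs) and from 27 to 30 without any other (29.5% to 30.9% of all pairs). The cause of these differences was not tested.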
